A study of Canis lupus familiaris with 8 samples.

Results

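The 6 genes described here encode proteins of the kinetochore and of the spindle assembly checkpoint: CENPA, KNL1, CENPE, KNTC1, BUB1 and BUB1B. They were taken by name from a gene list in the study's supplement that pairs symbols with Ensembl identifiers, and they are 6 of the 32704 genes counted. The study chose the list by significance in these same libraries, so a call on any gene of it is not independent evidence. It describes the list as genes raised by raffinose and lowered by both Nfat5 siRNAs. In the deposited counts, though, 193 of the 989 listed genes, these 6 among them, were lower in all 3 of those comparisons, so with raffinose their direction is opposite to the one described.

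RNA came from MDCK I cells, an established epithelial line from dog kidney, and 8 poly(A) RNA libraries fell into 4 groups of 2. The isosmotic control is the group labelled Neg-siRNA (300 mOsm), and the raffinose control is Neg-siRNA (500 mOsm). The other two groups, Nfat5-1-siRNA and Nfat5-2-siRNA, were both at 500 mOsm. In each group replicate 1 came from cell passage 15 and replicate 2 from passage 17. All cells, controls included, were transfected with 100 nM siRNA by a lipid reagent. Neg-siRNA is directed against Slc22a6, which the submitters describe as absent from these cells, and Nfat5-1-siRNA and Nfat5-2-siRNA are different constructs against Nfat5, a transcription factor of the osmotic stress response. In the 500 mOsm groups raffinose added 200 mOsm to the medium for the last 24 h. There was no Nfat5-siRNA group at 300 mOsm, so an effect of the siRNAs on these genes was measured only under raffinose. Library totals ran from 34564103 to 46043788 counts.

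The kinetochore is the protein assembly that forms on the centromere of each chromosome and holds it to the microtubules of the mitotic spindle. Until every kinetochore is attached, checkpoint proteins gathered there delay anaphase by keeping the anaphase-promoting complex inactive. The transcripts of many of these proteins accumulate in late S phase, G2 and mitosis, and are low in cells that do not divide. In bulk RNA, fewer dividing cells and less of each mRNA per cell cannot be told apart, and this holds for every result that follows. Of the marker lists for renal epithelium, fibroblasts, endothelium and leukocytes, for S phase and for inhibitors of cyclin-dependent kinases, no symbol was paired with an identifier in the sources used. The 57 genes of those 4 lists were not analysed here, nor was the Nfat5 transcript, so the labels of the siRNA groups were not checked by the targeted mRNA.

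Each of the 6 genes was lower in the raffinose control than in the isosmotic one, and lower again in both Nfat5-siRNA groups. Their summed level was 513 and 584 CPM (counts per 1000000 counts, scaled by edgeR's TMM factors) in the isosmotic control libraries and 237 and 203 CPM in the raffinose control. It was 75.3 and 64.5 CPM with Nfat5-1-siRNA and 57.3 and 46.7 CPM with Nfat5-2-siRNA. No library of a lower group reached one of a higher group, and BUB1 was the most abundant of the 6 in both Neg-siRNA groups, CENPE in both Nfat5-siRNA groups. Since CPM is not corrected for gene length, that order is one of reads and not of molecules.

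The hyperosmotic comparison, Neg-siRNA at 500 against 300 mOsm, asks what raffinose did to the transcripts, and 6 of the 6 genes passed edgeR's quasi-likelihood test as lower (Benjamini-Yekutieli adjusted p under 0.05). Among all 19835 genes tested 9.23% passed as lower and 11.3% as higher. Each Nfat5-siRNA was set against Neg-siRNA at 500 mOsm to ask which transcripts depend on Nfat5 there. With Nfat5-1-siRNA 6 of the 6 genes passed as lower, against 4.53% lower and 3.4% higher of all genes. Without replicate 2 of Nfat5-1-siRNA it was 3 of the 6, and 92 in place of 898 of all genes passed as lower. With Nfat5-2-siRNA it was again 6 of 6, against 7.38% lower and 4.67% higher. Both siRNA comparisons share the same 2 control libraries, which are also the raffinose arm of the hyperosmotic comparison. All 6 genes were among the 115 that passed as lower in all 3 comparisons, or 0.58% of the genes tested. In all 3 comparisons the 2 libraries of one group lay below both of the other for all 6 genes, which was also so for 32.2% of all genes in the hyperosmotic comparison, 32.9% with Nfat5-1-siRNA and 32.1% with Nfat5-2-siRNA.

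Over the 6 genes the median log2 fold change was -1.42 in the hyperosmotic comparison, -1.79 with Nfat5-1-siRNA and -2.15 with Nfat5-2-siRNA. Over all genes tested the medians were 0.004, -0.07 and -0.03. Scaling by library totals in place of TMM moved the median of all genes by -0.14, 0.20 and 0.30 in the 3 comparisons, and the shares passing as lower and higher became 11.8% and 9.37%, 2.91% and 6.62%, and 3.74% and 9.94%. Under that scaling too, 6 of the 6 genes passed as lower in each of the 3.

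**Figure D1:**
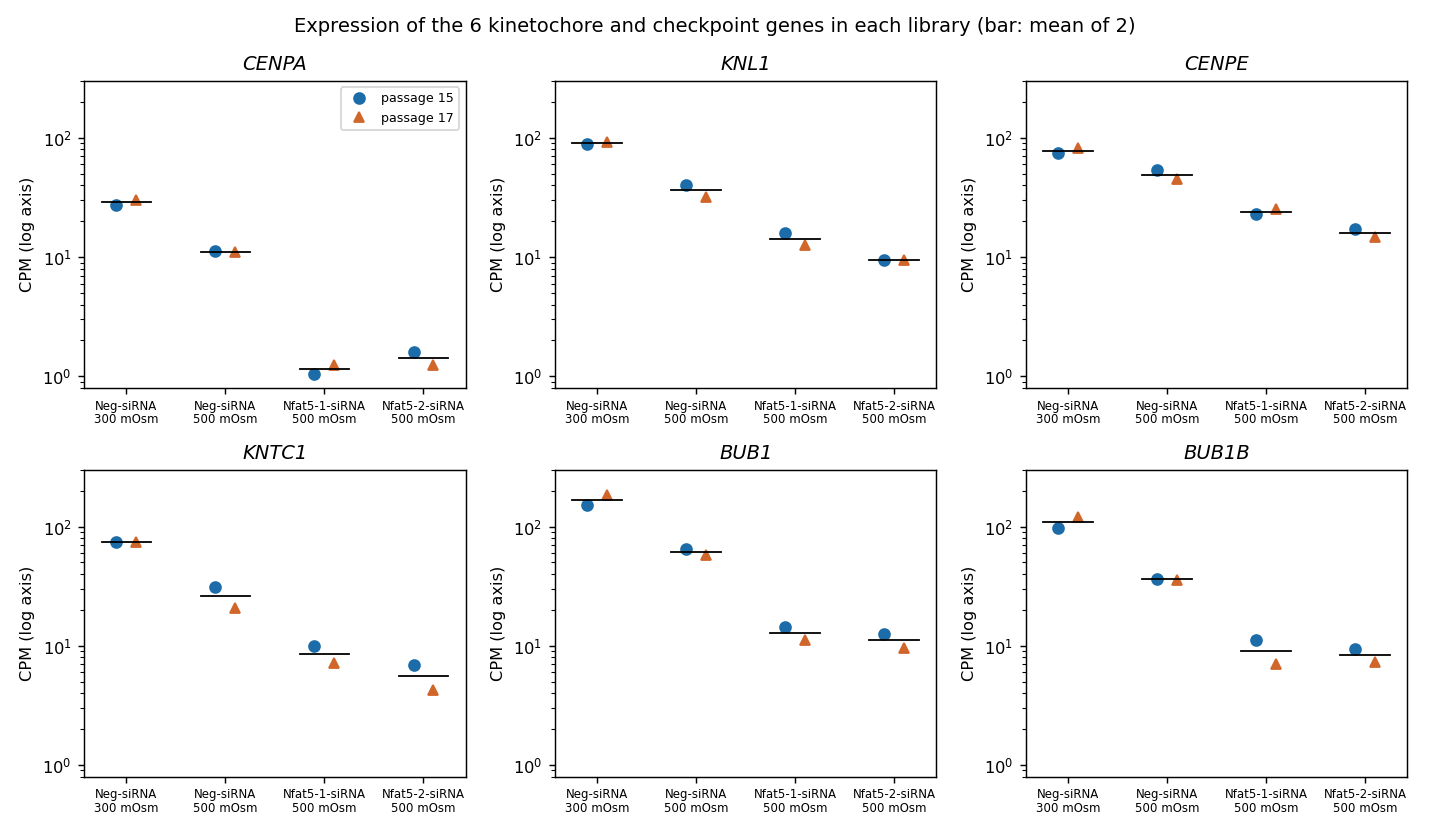
CPM on a log axis for each of the 6 genes in the 8 libraries, by group, with circles for passage 15, triangles for passage 17 and a bar for the mean of 2. In every panel the libraries step down from the isosmotic to the raffinose control and again to the Nfat5-siRNA groups, and that second step is steepest for CENPA.

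CENPA is the histone H3 variant that marks the centromere and on which the kinetochore is built. Its gene, ENSCAFG00000004457, lies on the plus strand of chromosome 17 (20811461 to 20818875, CanFam 3.1), with 726 exonic bases in 4 merged exons, and no other annotated gene overlaps it. The level was 27.3 CPM in passage 15 and 30.3 CPM in passage 17 of the isosmotic control, and 11.2 and 10.99 CPM in the raffinose control. It was 1.05 and 1.26 CPM with Nfat5-1-siRNA and 1.59 and 1.26 CPM with Nfat5-2-siRNA. The isosmotic control, the raffinose control and the siRNA groups did not overlap, while the libraries of the 2 siRNA constructs did. Set against the 300 mOsm mean, 38.6% of the level remained after raffinose, 4.0% with Nfat5-1-siRNA and 4.94% with Nfat5-2-siRNA. The siRNA values rest on few reads, 49 and 59 with Nfat5-1-siRNA and 67 and 53 with Nfat5-2-siRNA.

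CENPA fell by 1.37 log2 units with raffinose (SE 0.20, edgeR adjusted p = 0.00143). Relative to the raffinose control it fell by 3.26 with Nfat5-1-siRNA (SE 0.23, edgeR adjusted p = 3.82e-05) and fell by 2.96 with Nfat5-2-siRNA (SE 0.23, edgeR adjusted p = 4.22e-05). Among all 19835 genes tested, CENPA held rank 754 from the lowest with Nfat5-1-siRNA, rank 643 with Nfat5-2-siRNA and rank 2550 in the hyperosmotic comparison. These ranks depend on the many genes of low count. Among the 9203 genes averaging 10 CPM or more CENPA held ranks 9, 17 and 372 in the same order. CENPA averages 10 CPM only through its level in the isosmotic control, so its own fall bears on whether it is in that set. No conclusion is drawn from the ranks there.

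KNL1 is the scaffold of the outer kinetochore, the subunit to which BUB1 and BUB1B are recruited when an attachment is missing. The gene, ENSCAFG00000009202, lies on the plus strand of chromosome 30 (7753425 to 7828915) and has 11850 exonic bases in 26 merged exons. It stood at 89.0 and 91.9 CPM in the isosmotic control, 40.6 and 32.2 CPM in the raffinose control, 15.9 and 12.7 CPM with Nfat5-1-siRNA, and 9.47 and 9.50 CPM with Nfat5-2-siRNA. No library overlapped with another group, the 2 siRNA constructs included. The log2 fold change was -1.31 with raffinose (SE 0.17, edgeR adjusted p = 0.000506), -1.35 with Nfat5-1-siRNA (SE 0.17, edgeR adjusted p = 0.00182) and -1.94 with Nfat5-2-siRNA (SE 0.18, edgeR adjusted p = 0.000102). Without replicate 2 of Nfat5-1-siRNA the fall with that construct no longer passed (log2 fold change -1.20, edgeR adjusted p = 0.112).

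CENPE is a kinesin of the kinetochore's outer corona that carries chromosomes toward the spindle equator. ENSCAFG00000010836 lies on the minus strand of chromosome 32 (24447340 to 24530431), with 9004 exonic bases in 54 merged exons. Its level was 74.5 and 82.1 CPM in the isosmotic control, 53.4 and 45.2 CPM in the raffinose control, 22.9 and 25.1 CPM with Nfat5-1-siRNA, and 17.3 and 14.7 CPM with Nfat5-2-siRNA. Again no groups overlapped, but CENPE kept the largest share of its 300 mOsm level of the 6 genes in each group, 63.0% after raffinose, 30.7% with Nfat5-1-siRNA and 20.4% with Nfat5-2-siRNA.

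The log2 fold changes of CENPE were -0.67 with raffinose (SE 0.16, edgeR adjusted p = 0.0476), -1.04 with Nfat5-1-siRNA (SE 0.16, edgeR adjusted p = 0.00655) and -1.63 with Nfat5-2-siRNA (SE 0.16, edgeR adjusted p = 0.000207). The raffinose call was a narrow one. In each fit below, the group of the omitted library keeps 1 library, so the spread comes from the other groups. The edgeR adjusted p was 0.0966 and 0.398 without replicates 1 and 2 of the isosmotic control, 0.0818 and 0.383 without those of the raffinose control, and 0.103 and 0.11 without those of Nfat5-1-siRNA. With Nfat5-1-siRNA it was 0.121 without replicate 1 of the raffinose control, and 0.141 and 0.151 without replicates 1 and 2 of Nfat5-1-siRNA.

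KNTC1 is the Rod subunit of the RZZ complex, which brings dynein and the checkpoint proteins MAD1 and MAD2 to unattached kinetochores. Its gene, ENSCAFG00000007837, is on the minus strand of chromosome 26 (6788694 to 6864974), with 7679 exonic bases in 64 merged exons. The libraries held 74.0 and 74.3 CPM in the isosmotic control, 31.0 and 20.9 CPM in the raffinose control, 9.88 and 7.24 CPM with Nfat5-1-siRNA, and 6.95 and 4.29 CPM with Nfat5-2-siRNA. In the raffinose control the passages lay farther apart for KNTC1 than for the other 5 genes, yet the 4 groups did not overlap. The log2 fold change was -1.51 with raffinose (SE 0.24, edgeR adjusted p = 0.00276), -1.60 with Nfat5-1-siRNA (SE 0.25, edgeR adjusted p = 0.00669) and -2.21 with Nfat5-2-siRNA (SE 0.25, edgeR adjusted p = 0.00056). Without replicate 2 of the raffinose control the raffinose value was -1.31 (edgeR adjusted p = 0.0541). With Nfat5-1-siRNA the edgeR adjusted p was 0.126 without replicate 1 of the raffinose control and 0.283 without replicate 2 of Nfat5-1-siRNA.

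BUB1 is a checkpoint kinase that binds KNL1 and phosphorylates histone H2A at the centromere. Its gene, ENSCAFG00000007062, lies on the minus strand of chromosome 17 (35208941 to 35252297) and has 4040 exonic bases in 40 merged exons. Its span overlaps with that of 1 other gene, which shares none of its exonic bases. The level was 152 and 184 CPM in the isosmotic control, 64.4 and 57.7 CPM in the raffinose control, 14.5 and 11.2 CPM with Nfat5-1-siRNA, and 12.6 and 9.64 CPM with Nfat5-2-siRNA. The libraries of the siRNA constructs overlapped, and all 4 lay far below both Neg-siRNA groups. The log2 fold change of BUB1 was -1.46 with raffinose (SE 0.18, edgeR adjusted p = 0.000376), -2.25 with Nfat5-1-siRNA (SE 0.19, edgeR adjusted p = 0.000123) and -2.46 with Nfat5-2-siRNA (SE 0.19, edgeR adjusted p = 4.22e-05).

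BUB1B encodes BubR1, the subunit of the mitotic checkpoint complex that, with MAD2 and BUB3, holds CDC20. ENSCAFG00000008877 lies on the plus strand of chromosome 30 (7361964 to 7425992), with 3406 exonic bases in 24 merged exons. It was at 96.6 and 121 CPM in the isosmotic control, 36.4 and 35.7 CPM in the raffinose control, 11.1 and 7.09 CPM with Nfat5-1-siRNA, and 9.47 and 7.37 CPM with Nfat5-2-siRNA. As for BUB1, only the siRNA constructs overlapped with each other. The log2 fold change was -1.59 with raffinose (SE 0.21, edgeR adjusted p = 0.000615), -1.99 with Nfat5-1-siRNA (SE 0.22, edgeR adjusted p = 0.000697) and -2.10 with Nfat5-2-siRNA (SE 0.22, edgeR adjusted p = 0.00028).

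BUB1B shares 45 of its exonic bases with a neighbouring gene, ENSCAFG00000008972, and reads were counted without regard to strand. That neighbour stood at 13.3 and 11.7 CPM in the isosmotic control and at 7.54 and 6.94 CPM in the raffinose control. It was at 17.0 and 21.2 CPM with Nfat5-1-siRNA and at 22.0 CPM in both libraries with Nfat5-2-siRNA. With the siRNAs its level was thus higher where that of BUB1B was lower.

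**Figure D2:**
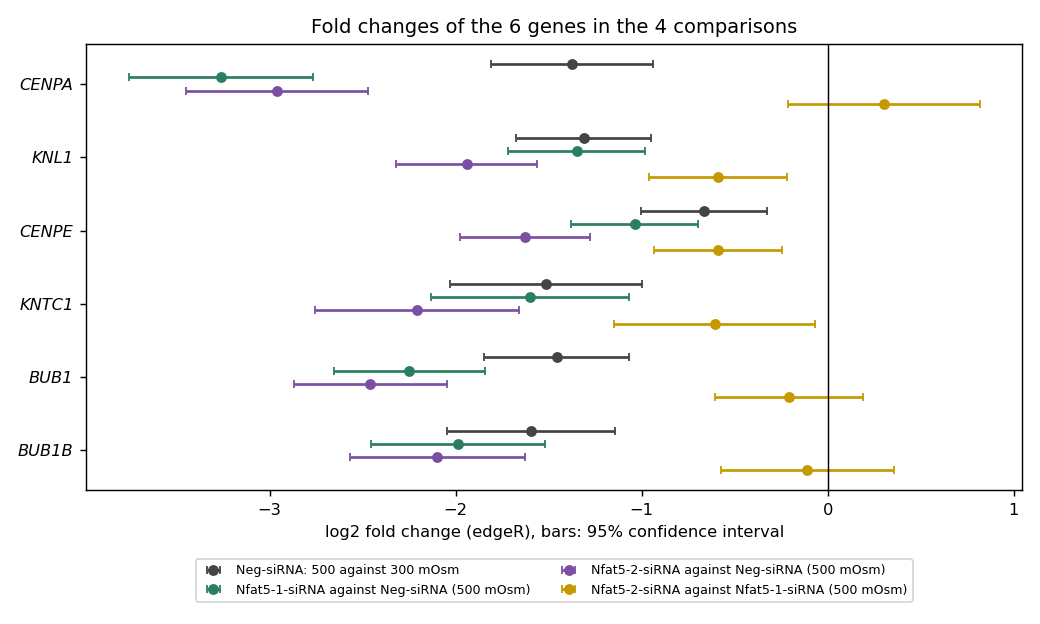
Log2 fold change of each gene from edgeR (points) with its 95% confidence interval (bars) in the hyperosmotic comparison, with each Nfat5-siRNA, and between the siRNA constructs. CENPE lies closest to 0 in the first 3 comparisons, CENPA is farthest from 0 with both siRNAs at -3.26 and -2.96, and the intervals between constructs lie around or just below 0.

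**Figure D3:**
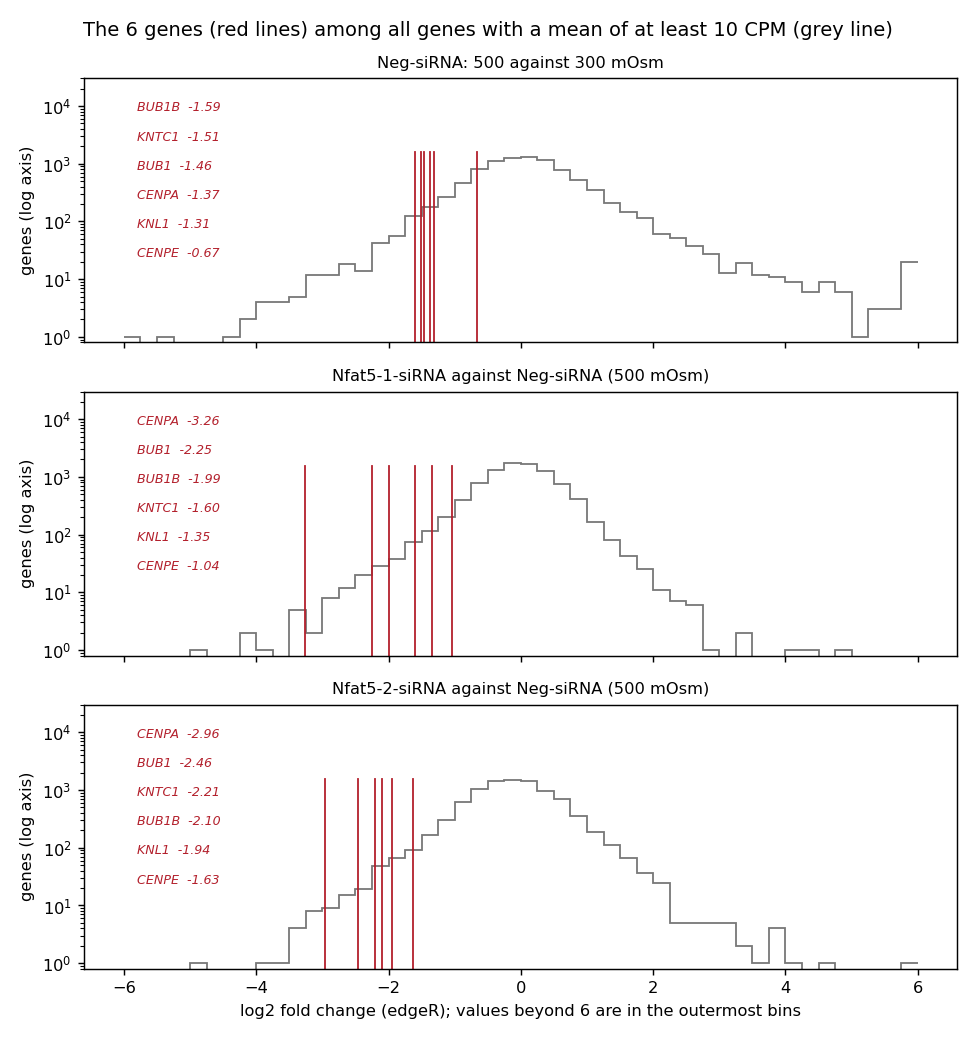
Number of genes (log axis) by log2 fold change from edgeR for the 9203 genes averaging 10 CPM or more (grey outline), with a red line for each of the 6 genes, in the 3 comparisons. Every red line is left of 0, and CENPA is the leftmost of the 6 with both siRNAs, though it averages 10 CPM only through its level in the isosmotic control.

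Per 1000 exonic bases (CPM per kb), BUB1 at 41.5 ± 5.61 (SD, n = 2) and CENPA at 39.7 ± 2.95 (SD, n = 2) had the highest levels in the isosmotic control, and their libraries overlapped. BUB1B followed at 32.0 ± 5.11, and its libraries lay below both of CENPA and of BUB1. KNTC1 at 9.66 ± 0.032, CENPE at 8.69 ± 0.593 and KNL1 at 7.63 ± 0.174 formed a lower tier. In that tier the order held in both passages with no overlap.

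After raffinose the order of levels per kb was nearly the same. CENPA at 15.3 ± 0.234 and BUB1 at 15.1 ± 1.16 overlapped, and BUB1B stood at 10.6 ± 0.152. CENPE, at 5.48 ± 0.644, was now above KNTC1 at 3.38 ± 0.93 and KNL1 at 3.07 ± 0.501, whose libraries overlapped.

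With Nfat5-1-siRNA, BUB1 at 3.18 ± 0.582, BUB1B at 2.67 ± 0.835 and CENPE at 2.67 ± 0.174 CPM per kb overlapped with one another. CENPA had dropped to 1.59 ± 0.198 CPM per kb, above KNL1 at 1.21 ± 0.193 and KNTC1 at 1.11 ± 0.244, which overlapped. With Nfat5-2-siRNA CENPA stood at 1.96 ± 0.33 CPM per kb, overlapping with CENPE at 1.77 ± 0.204. BUB1 at 2.75 ± 0.512 and BUB1B at 2.47 ± 0.437 were again at the top of the order, though BUB1B overlapped with both BUB1 and CENPA. KNL1 at 0.80 ± 0.0016 and KNTC1 at 0.73 ± 0.245, which overlapped, were at its foot. So CENPA went from the upper tier in the Neg-siRNA groups to the middle of the order in the siRNA groups.

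Ratios between the genes were taken within each library for 5 pairs, where no scaling of libraries can move them. The log2 ratio of CENPA to CENPE, in CPM, was -1.45 and -1.44 in the isosmotic control and -2.25 and -2.04 in the raffinose control. It was -4.44 and -4.32 with Nfat5-1-siRNA, and -3.44 and -3.55 with Nfat5-2-siRNA. All 4 groups were apart, with the lowest ratios under Nfat5-1-siRNA. CENPA and CENPE are the genes that kept the smallest and the largest share of their 300 mOsm level with both siRNAs.

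Against BUB1 in place of CENPE, the log2 ratio of CENPA was -2.47 and -2.60 in the isosmotic control and -2.52 and -2.39 in the raffinose control, where the groups overlapped. It was -3.78 and -3.15 with Nfat5-1-siRNA and -2.98 and -2.94 with Nfat5-2-siRNA, below all 4 Neg-siRNA libraries.

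Between KNL1 and the kinase that binds to it, BUB1, the log2 ratio was -0.77 and -1.0 in the isosmotic control and -0.66 and -0.84 in the raffinose control, where the groups overlapped. It was 0.13 and 0.18 with Nfat5-1-siRNA and -0.41 and -0.02 with Nfat5-2-siRNA, above both Neg-siRNA groups. The log2 ratio of KNTC1 to KNL1 was -0.27 and -0.31 in the isosmotic control, -0.39 and -0.62 in the raffinose control, -0.69 and -0.81 with Nfat5-1-siRNA and -0.45 and -1.15 with Nfat5-2-siRNA. Its highest values were the isosmotic ones, and the Nfat5-2-siRNA libraries overlapped with both other groups at 500 mOsm.

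For BUB1 and BUB1B the log2 ratio spanned 0.38 to 0.82. It was 0.65 and 0.60 in the isosmotic control and 0.82 and 0.69 in the raffinose control, which did not overlap. With Nfat5-1-siRNA it was 0.38 and 0.66, overlapping the isosmotic control. With Nfat5-2-siRNA it was 0.41 and 0.39, below all 4 Neg-siRNA libraries. The ratios were not tested.

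**Figure D4:**
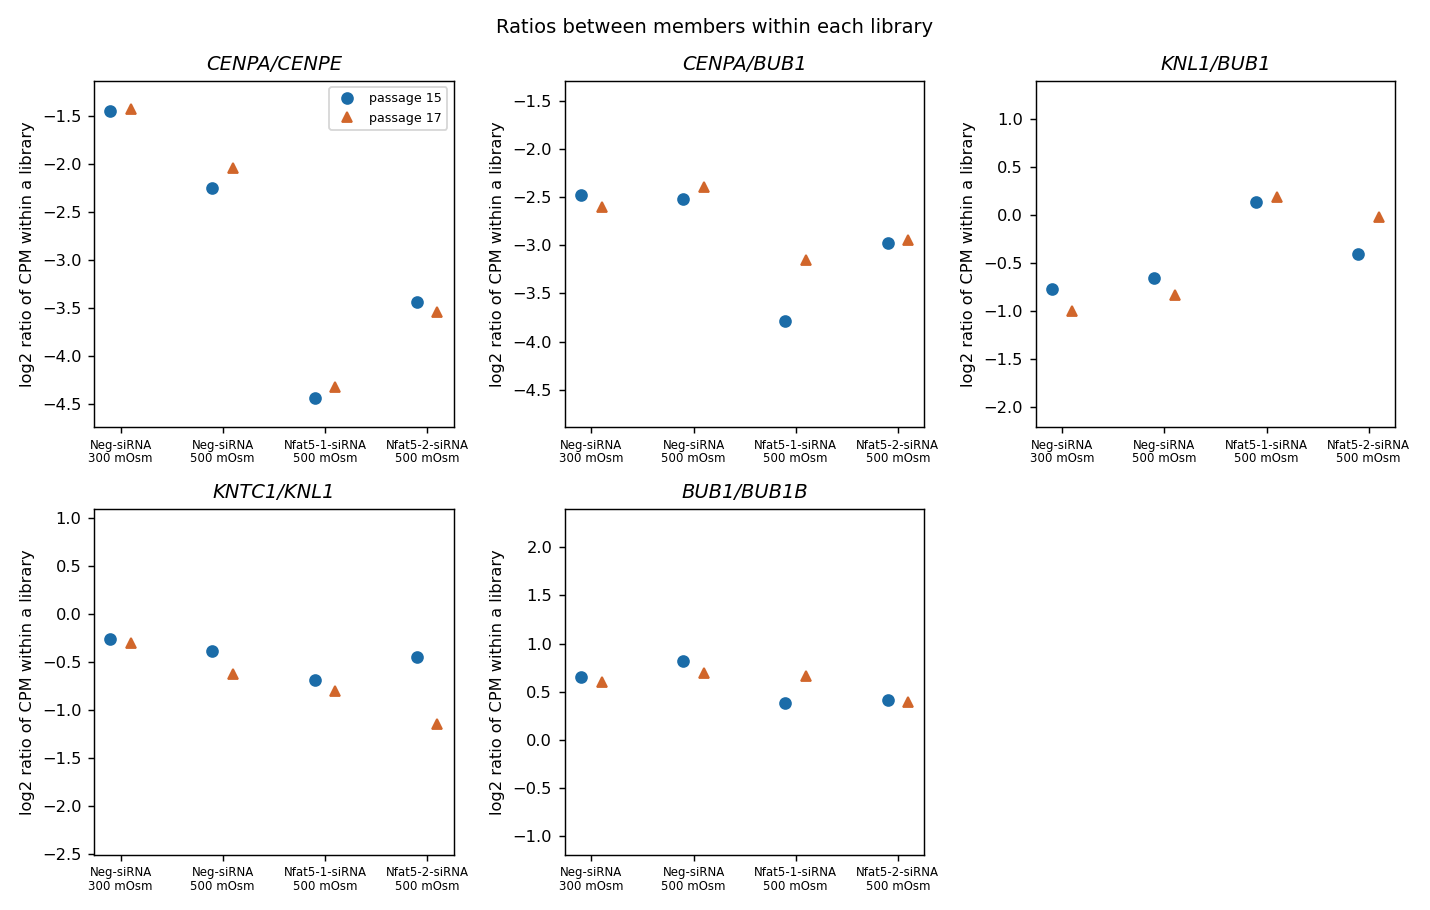
Log2 ratio of CPM within each library for the 5 pairs of genes named above each panel, by group, with circles for passage 15 and triangles for passage 17, on vertical axes of equal span. CENPA over CENPE runs from -1.44 down to -4.44, CENPA over BUB1 is lower in both siRNA groups than in all 4 Neg-siRNA libraries, KNL1 over BUB1 runs from -1.0 up to 0.18, and KNTC1 over KNL1 and BUB1 over BUB1B move over shorter ranges.

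Nfat5-2-siRNA was also set against Nfat5-1-siRNA, to ask whether the constructs differed in these transcripts. By edgeR 0 of the 6 genes passed (adjusted p = 1 for each), against 0.0101% of all genes lower and 0.0302% higher. DESeq2 passed 0 of the 6 as well, while 80 of all genes passed it as lower. At an unadjusted p under 0.05, 3 of the 6 were lower with Nfat5-2-siRNA in the edgeR fit, against 7.9% of all genes, and the same 3 did not overlap between the constructs, against 23.9% of all genes.

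Those 3 genes were KNL1, CENPE and KNTC1, with log2 differences of -0.59 (95% interval -0.96 to -0.22), -0.59 (-0.93 to -0.24) and -0.61 (-1.15 to -0.07). For BUB1 the difference was -0.21 (-0.61 to 0.19) and for BUB1B -0.11 (-0.58 to 0.35). CENPA differed in the other direction, by 0.30 (-0.21 to 0.82). With the passage as a block in the edgeR fit, KNL1 and CENPE passed as lower with Nfat5-2-siRNA (edgeR adjusted p = 0.0448 and 0.0231), so 2 of the 6, against 2.55% of all genes. KNTC1 did not pass with the block (edgeR adjusted p = 0.0655).

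The passages gave the same direction in every comparison with Neg-siRNA, but raffinose went with a larger fall in passage 17. Within passage 15 the log2 ratio of 500 to 300 mOsm was -1.28 for CENPA, -1.13 for KNL1, -0.48 for CENPE, -1.25 for KNTC1, -1.24 for BUB1 and -1.41 for BUB1B. Within passage 17 it was -1.46, -1.51, -0.86, -1.83, -1.67 and -1.76 for the same genes in that order. The ratio was thus lower in passage 17 for 6 of the 6, and for 51.7% of the 12424 genes averaging 1 CPM or more, but the 6 genes vary together and are not separate observations. In the isosmotic control none of the 6 genes was lower in passage 17 than in passage 15, with log2 differences of 0.01 to 0.33, and in the raffinose control all 6 were, by -0.57 to -0.03. Over all genes the median difference between passages was -0.02 in both groups. With Nfat5-1-siRNA 4 of the 6 and with Nfat5-2-siRNA 5 of the 6 were lower in passage 17. Of the 12424 genes, 52.3% were lower in passage 17 in the isosmotic control, 52.9% in the raffinose control, 48.4% with Nfat5-1-siRNA and 47.2% with Nfat5-2-siRNA. With 1 library per passage and group this difference was not tested.

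With the passage as a block, 6 of the 6 genes passed as lower in each of the 3 comparisons, with a highest edgeR adjusted p of 0.0003. The shares of all genes that passed as lower were then 15.7%, 11.9% and 15.3%, and 1.95% passed in all 3. A lower p with the block did not always go with a smaller SE. For CENPA with Nfat5-1-siRNA the SE was 0.229 in both fits, while the unadjusted edgeR p was 2.18e-09 without the block and 9.45e-27 with it. A lower edgeR p with the block is therefore not by itself stronger evidence, for these genes or for any other gene described.

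Of 48 other genes listed for the inner kinetochore, the outer kinetochore and the checkpoint, 9 were paired with an identifier, all through the same supplementary list and so under the same selection, and 39 were not analysed here. Of the 9, 8 passed as lower with raffinose, 7 with Nfat5-1-siRNA and 8 with Nfat5-2-siRNA, and none passed as higher, beside 9.23%, 4.53% and 7.38% of all genes passing as lower. With the block it was 9 of 9 in each, beside 15.7%, 11.9% and 15.3% of all genes. Without replicate 2 of the isosmotic control, or replicate 1 of the raffinose control, 5 passed with raffinose, while the count over all genes went from 1831 to 1143 and 991. With Nfat5-1-siRNA 3 passed without either replicate of the raffinose control or replicate 1 of that siRNA, and 2 without its replicate 2, while the count over all genes went from 898 to 374, 266, 348 and 92 in that order. With Nfat5-2-siRNA 5 and 4 passed without replicates 1 and 2 of the raffinose control, and 4 without replicate 2 of that siRNA, while the count over all genes went from 1464 to 582, 549 and 658. Their median log2 fold changes were -1.44, -1.19 and -1.27, beside -1.42, -1.79 and -2.15 for the 6 genes. Their summed level was 572 and 690 CPM in the isosmotic control, 241 and 231 CPM in the raffinose control, 119 and 98.7 CPM with Nfat5-1-siRNA, and 104 and 91.8 CPM with Nfat5-2-siRNA.

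At the inner kinetochore, HJURP, the chaperone that deposits CENP-A, had a log2 fold change of -1.96 with raffinose, -1.74 with Nfat5-1-siRNA and -1.96 with Nfat5-2-siRNA. It passed edgeR's test as lower in each comparison.

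In the outer kinetochore NDC80, NUF2, SPC24 and SPC25 encode the subunits of the Ndc80 complex, which grips the microtubule. All 4 passed edgeR's test as lower in the 3 comparisons, but the sizes were unlike. Some of these calls were not kept in every fit with 1 library left out. They were those of NUF2 and SPC25 with raffinose, and of NDC80, SPC24 and SPC25 with each siRNA. The fold changes remained negative in those fits. SPC24 had the lowest log2 fold change of the 4 with raffinose, -2.82, and NUF2 the lowest with the siRNAs, -2.39 and -2.53. NDC80 had -1.86 with raffinose and -0.99 and -1.23 with the siRNAs. With Nfat5-1-siRNA NDC80 was close to the threshold (edgeR adjusted p = 0.0463, and 1.8e-05 with the passage block). It did not pass when any 1 library of the Neg-siRNA groups or of Nfat5-1-siRNA was left out (edgeR adjusted p of 0.0848 to 0.937). For SPC25 the values were -1.11, -1.26 and -1.26. SKA2, of the Ska complex, had -0.54 with raffinose (edgeR adjusted p = 0.122), and fell with the siRNAs, with -0.94 and -1.27. With Nfat5-1-siRNA its call was not kept in every fit with 1 library left out (-1.02 to -0.77).

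Among checkpoint genes TTK encodes the kinase that phosphorylates KNL1 so that BUB1 can bind it. It fell with raffinose (-1.45) and with Nfat5-2-siRNA (-1.68), and had -1.19 with Nfat5-1-siRNA (edgeR adjusted p = 0.0551, and 1.47e-08 with the passage block). Neither call of TTK was kept in every fit with 1 library left out. Its values there ran from -1.64 to -1.30 with raffinose and from -2.14 to -1.33 with Nfat5-2-siRNA. SGO2, a protector of centromeric cohesion, fell in each comparison, with -1.21, -0.99 and -1.23. With Nfat5-1-siRNA its call was not kept in every fit with 1 library left out (-1.01 to -0.91). CDCA8, a subunit of the chromosomal passenger complex, fell with raffinose (-1.03) and had -0.65 and -0.67 with the siRNAs (edgeR adjusted p = 0.0893 and 0.0578). With the passage block the edgeR adjusted p was 0.000407 and 0.000225.

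**Figure D5:**
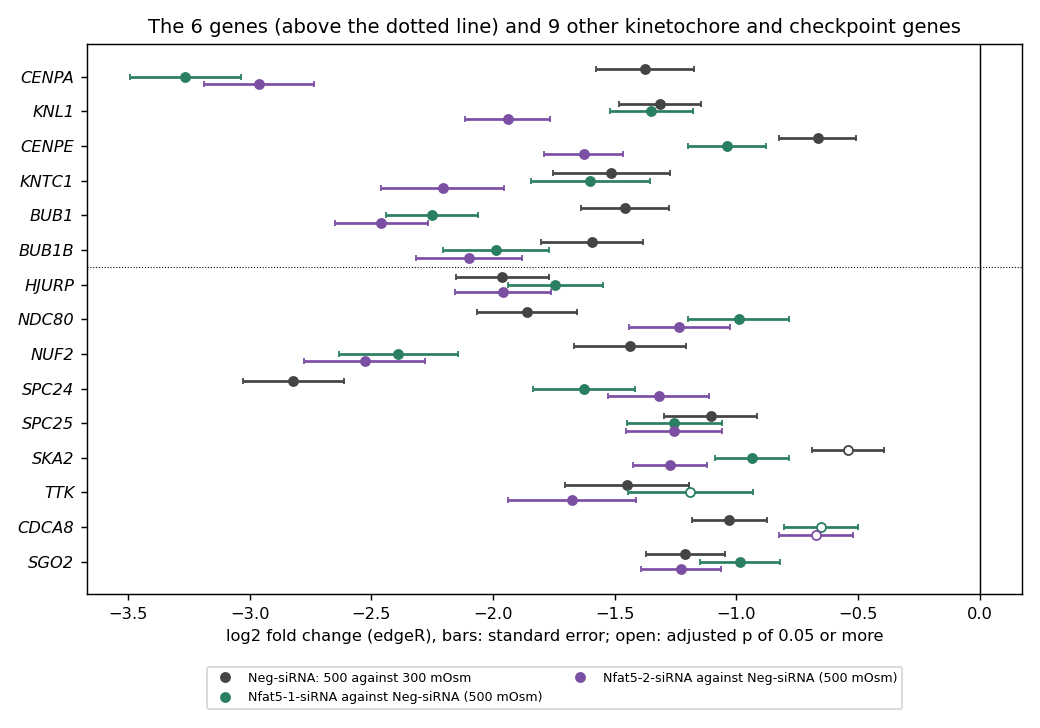
Log2 fold change from edgeR with its SE for the 6 genes (above the dotted line) and the 9 other kinetochore and checkpoint genes in the 3 comparisons, with open circles where the adjusted p is 0.05 or more. All values are below 0, and the open circles are SKA2 with raffinose, TTK with Nfat5-1-siRNA, and CDCA8 with both siRNAs.

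Over the 8 libraries the log2 CPM of the 6 genes varied together, with Pearson's r of 0.956 to 0.997 in the 15 pairs. The points are libraries of 4 groups, so these values describe the group differences already given. Of 716 genes with a symbol that averaged 10 CPM or more, 121 (16.9%) had a mean r with the 6 genes of at least 0.95, against 345 (3.75%) of all 9203 genes at that level. Among those 716 genes, all of them from the supplementary list, the 10 with the highest mean r were DLGAP5 and KIF20A (both 0.989), RASAL1, TMPO, TPX2, SKA2, TOP2A, SUCLG2, AURKA and GTSE1 (0.984). As background, DLGAP5 and TPX2 act in spindle assembly, KIF20A in cytokinesis, AURKA is a centrosomal kinase and TOP2A untangles sister chromatids. RASAL1 is a regulator of Ras and SUCLG2 a subunit of a mitochondrial enzyme.

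A high r did not mean an equal fall. DLGAP5 had log2 fold changes of -1.53 with raffinose, -2.81 with Nfat5-1-siRNA and -3.25 with Nfat5-2-siRNA. RASAL1 had -0.60, -0.89 and -1.07. Among the 193 genes of the supplementary list that were lower in all 3 comparisons, ranked from the lowest mean log2 fold change over both siRNAs, CENPA held rank 4, BUB1 rank 20, BUB1B rank 31, KNTC1 rank 42, KNL1 rank 62 and CENPE rank 87. The median of those 193 was -1.26 over the siRNAs and -1.14 with raffinose.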

How the data were processed

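Poly(A) RNA was sequenced as paired ends. Per the labels and the study's methods, the authors aligned reads with HISAT2 (version 2.0.5) to CanFam 3.1 and counted them with featureCounts (version 1.5.1) on Ensembl 92 genes. The deposited values are raw counts per gene. The header of the deposited counts sets the strand option to none and holds no option for fragments. Counts of 2 outnumber counts of 1 (8508 against 7419), so both mates seem to be counted, and counting error is then understated. The 8 library totals run from 34564103 to 46043788. Exonic lengths are those deposited with the counts.

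Genes whose counts summed to 5 or more over the libraries (19835 of 32704) were tested with edgeR (4.0.16, R 4.3.3): TMM factors, 1 mean per group over all 8 libraries, the quasi-likelihood test, and Benjamini-Yekutieli adjustment over all genes with a threshold of 0.05. No passage term was used. SE is the log2 fold change divided by the square root of F. The fit was run on simulated data with 200 genes changed in the raffinose control. Every simulated gene had the same spread, so that run does not bear on how the fits handle genes of unlike spread. Alternatives were DESeq2 (1.42.0), its size factors, library totals, other filters, Benjamini-Hochberg adjustment, a passage block, fits of only 4 libraries, and leaving out each library. Leaving out a library leaves 1 in its group, so the spread in such a fit comes from the other groups. Library totals were added after seeing the data. The labels give passage 15 and 17, which pair libraries across groups. Deviations from group means correlated between same-numbered libraries (r from 0.123 to 0.465 over 12424 genes, the check for each pair of groups).

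Symbols came only from a supplementary list of 989 genes (860 with a symbol), all of them in the count table. The members and gene lists were chosen with earlier results of these data known. All matched genes of the lists are named, apart from a gene that is not reported here and is in no count of the lists, and the 10 genes most alike were taken by mean Pearson r of log2 CPM (prior count 2) among genes with a symbol averaging 10 CPM or more.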

Additional observations from a re-analysis of the deposited data

Results flagged for a closer look

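Between the constructs, 2 of the genes passed as different once the passage was a block in the edgeR fit. KNL1 was lower with Nfat5-2-siRNA than with Nfat5-1-siRNA, with a log2 difference of -0.58 (edgeR adjusted p = 0.0448), and both passages showed that direction (-0.75 and -0.41). CENPE was lower by the same test, with a log2 difference of -0.59 (edgeR adjusted p = 0.0231), in both passages (-0.41 and -0.78). Without the block both had an adjusted p of 1, and over the alternatives without it the adjusted p ran from 0.121 for KNL1 and from 0.0999 for CENPE up to 1. The fit with the block also passed 2.55% of all genes as lower with Nfat5-2-siRNA. The SE changed little with the block, from 0.172 to 0.152 for KNL1 and from 0.160 to 0.145 for CENPE. The calls thus depend on how the fit with the block weighs the spread, and no difference between the constructs is concluded from them.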

How the results depend on the processing

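With 2 libraries per group, precision is limited by the spread between libraries, and for CENPA with the siRNAs also by its few reads. Under every alternative run, the 6 genes were lower in the 3 comparisons with Neg-siRNA, and all 6 passed with Nfat5-2-siRNA in each. Filtering by filterByExpr and fitting only 4 libraries left 5 of 6 in the hyperosmotic comparison, where CENPE missed (edgeR adjusted p = 0.051 and 0.0881). Leaving out 1 library gave 4 to 6 genes there, 3 to 6 with Nfat5-1-siRNA (3 without its replicate 2), 6 to 6 with Nfat5-2-siRNA and 0 to 0 between constructs. For the 9 other kinetochore and checkpoint genes it gave 5 to 8, 2 to 8, 4 to 8 and 0 to 0. Of these 9, NDC80 alone lost its call with Nfat5-1-siRNA, leaving 6, with DESeq2's size factors, library totals, filterByExpr and 4 libraries (edgeR adjusted p = 0.0526, 0.142, 0.0706 and 0.125), and with Nfat5-2-siRNA, leaving 7, with 4 libraries (edgeR adjusted p = 0.062). The passage block raised the count between constructs to 2 of 6 and lost no call of the 6 genes. BUB1B turned from -0.11 between constructs to 0.25 without replicate 1 of Nfat5-1-siRNA and 0.06 without replicate 2 of Nfat5-2-siRNA, neither past the threshold, over a range of -0.40 to 0.25 with 1 library left out.

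Counts of all genes passing as lower moved more, and the cause was not tested. The hyperosmotic count of 1831 became 3324 with Benjamini-Hochberg adjustment and 3124 with the block, and ran from 991 to 1895 when a library was left out. With Nfat5-1-siRNA, 898 became 578 on library totals, 1634 without a filter, 1414 by DESeq2, 2226 with Benjamini-Hochberg and 2358 with the block, and ran from 92 to 912. With Nfat5-2-siRNA, 1464 became 742 on library totals, 2200 without a filter, 3043 with Benjamini-Hochberg, 3044 with the block and 833 with 4 libraries, and ran from 549 to 1304. Between constructs, 2 became 6 with DESeq2's size factors, 110 without a filter, 0 with filterByExpr, 80 by DESeq2, 73 with Benjamini-Hochberg, 505 with the block and 0 with 4 libraries, and ran from 0 to 6.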

Other observations

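Outside the kinetochore, 3 genes of the lists of anaphase-promoting complex genes and of regulators of G2 and mitotic transcription were paired with an identifier, from 35 listed. UBE2C, the ubiquitin-conjugating enzyme of the anaphase-promoting complex, stood at 145 CPM in both isosmotic control libraries (Neg-siRNA, 300 mOsm), 67.0 and 58.1 CPM in the raffinose control, 30.2 and 27.0 CPM with Nfat5-1-siRNA, and 28.3 and 29.7 CPM with Nfat5-2-siRNA. It fell in the 3 comparisons, with log2 fold changes of -1.21, -1.13 and -1.11 (edgeR adjusted p = 0.000268, 0.00201 and 0.00142). ANAPC4, a subunit of that complex, did not follow the 6 genes. Its level was 147 and 146 CPM in the isosmotic control, 469 and 414 CPM in the raffinose control, 293 and 265 CPM with Nfat5-1-siRNA, and 239 and 230 CPM with Nfat5-2-siRNA. ANAPC4 rose with raffinose (log2 fold change 1.59, edgeR adjusted p = 2.8e-05), fell with Nfat5-2-siRNA (-0.92, edgeR adjusted p = 0.00448) and had -0.66 with Nfat5-1-siRNA (edgeR adjusted p = 0.0527, and 0.000111 with the passage block).

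MYBL2, a transcription factor of G2 and mitotic genes, stood at 386 and 406 CPM in the isosmotic control, 239 and 234 CPM in the raffinose control, 166 and 148 CPM with Nfat5-1-siRNA, and 104 and 99.9 CPM with Nfat5-2-siRNA. It fell with raffinose (-0.74) and with Nfat5-2-siRNA (-1.21) (edgeR adjusted p = 0.00918 and 0.000559) and had -0.59 with Nfat5-1-siRNA (edgeR adjusted p = 0.0835, and 0.000761 with the passage block). Its log2 difference between the constructs was -0.62 (edgeR adjusted p = 0.585, and 0.00231 with the passage block).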
